A study of Homo sapiens with 32 samples.

Results

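Resistance to a high dose of imatinib (2 µM) was compared with resistance to a low dose (0.5 µM), in lines selected from K-562 cells. K-562 is a human chronic myeloid leukemia line with an erythroid character whose growth depends on the BCR-ABL1 fusion kinase, and imatinib is an inhibitor that holds this kinase in an inactive state. The comparison took 16 of the 32 expression arrays of the study: 8 arrays of the 2 high-imatinib lines and 8 arrays of the 2 low-imatinib lines. The remaining 16 arrays come from the 2 lines resistant to 0.1 µM nilotinib and from 2 sets of treatment-naive cells, titled S and K. All lines derive from 1 cell line, and the labels state that the dose of drug was raised in steps. The growth medium is given without either drug for every sample, so whether drug was present when RNA was taken is not clear. Each line was measured on 4 technical arrays, which were averaged to 1 value per gene and line. The labels do not say that high-imatinib line 1 and low-imatinib line 1 share an origin, and line numbers serve here as names only.

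When BCR-ABL1 is inhibited, cells lose signals that drive growth, block apoptosis and supply protein synthesis, and cells selected for growth in the drug can differ in any of these. One pathway that reads amino acid supply and protein folding is the integrated stress response: the transcription factor ATF4 is translated when general protein synthesis is slowed, and it raises genes for aminoacyl-tRNA synthetases, amino acid synthesis and stress signals. Each selected line has its own history, so a gene that separates the doses has to be told apart from a gene that separates 1 line from the rest.

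Values are the authors' summarised intensities for array features, on what reads as a log2 scale, so a difference of 1 is 2-fold. One feature per gene left 14884 genes. Array medians lay between 5.85 and 6.11. No detection calls were used, and a level below those medians is not read as absence of the transcript. Arrays of 1 line correlated at between 0.952 and 0.991 over genes. Among 6 measured K-562 markers, GATA1, the erythroid master regulator, lay between 9.12 and 9.69 in the 4 lines, and the summed level of all 6 was 46.7 and 48.7 in high-imatinib lines 1 and 2, against 48.8 and 50.2 in low-imatinib lines 1 and 2. The 14 measured markers of T cells, B cells, monocytes, granulocytes, epithelium and fibroblasts summed to between 82.2 and 84.2 in the 4 lines. Of these 14, 5 were higher in both high lines than in both low lines and 2 were lower. The 5 had gaps of at most 0.14. EPCAM, an epithelial adhesion molecule, moved most, with 5.86 and 7.87 in high-imatinib lines 1 and 2, against 9.26 and 8.25 in low-imatinib lines 1 and 2. LYZ, the lysozyme of monocytes and granulocytes, had 7.45 and 6.16 in high-imatinib lines 1 and 2, and at most 6.37 in the low-imatinib lines. The part of other cell types in the results was not tested. The leading axis of technical variation, with 16.8% of the variance within lines, is called the technical axis here. On it the line means were -2.13 and 2.73 for high-imatinib lines 1 and 2, against 6.09 and 5.69 for low-imatinib lines 1 and 2. These line means did not overlap between the doses; its part in the results was not tested beyond the counts given below with it taken out. In RNA from whole cultures, fewer cells of a type and less RNA per cell cannot be told apart.

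Few genes separated the doses, and most of the difference between the 4 lines lay in 1 line. With limma fitted to the line means of all 4 groups, 0 of 14884 genes (0%) passed an adjusted p of 0.05; the smallest adjusted p was 0.799. An unadjusted p under 0.05 was reached by 722 genes (4.85%), of which 255 (1.71%) were higher and 467 (3.14%) lower in the high-imatinib lines. With high-imatinib line 2 left out, limma called 270 genes; with line 1 left out, it called 2. The count was 413 when limma took the set of 4 arrays as a random block over all 32 arrays, a fit in which arrays of a line still add degrees of freedom. No single-gene difference between doses in the text below passed the threshold in the fit to line means, and the words higher and lower give the order of the line means.

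Without a test, a gene was called split by dose where both high-imatinib lines lay on 1 side of both low-imatinib lines with a gap of at least 1 (log2) between the nearest high and low line. This held for 14 genes (0.0941%): 3 were higher (0.0202%) and 11 lower (0.0739%) in the high-imatinib lines. Line means merely failed to overlap in 4938 genes (33.2%), 2562 higher (17.2%) and 2376 lower (16%). A gap of at least 0.5 was reached by 114 genes (0.766%), 39 higher (0.262%) and 75 lower (0.504%). Over all genes, the arrays of the doses lay apart in 188 genes higher (1.26%) and 277 lower (1.86%). The 14 split genes are among these, as a gap of 1 between line means nearly requires.

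A gene was called carried by 1 line where that line lay at least 1 away from the nearest of the other 3 and those 3 spanned less than 1; this held for 465 genes (3.12%). High-imatinib line 1 carried 392 genes (26.7% of those that span at least 1 over the 4 lines), 256 higher (1.72%) and 136 lower (0.914%). High-imatinib line 2 carried 34 genes, 19 higher (0.128%) and 15 lower (0.101%). Low-imatinib line 1 carried 27 genes higher (0.181%) and 5 lower (0.0336%), and low-imatinib line 2 carried 5 higher (0.0336%) and 2 lower (0.0134%). Taking the 1466 genes whose 4 line means spanned at least 1 (9.85%), 14 were split by dose (0.955%), 465 were carried by 1 line (31.7%) and 987 met neither rule (67.3%).

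**Figure D1:**
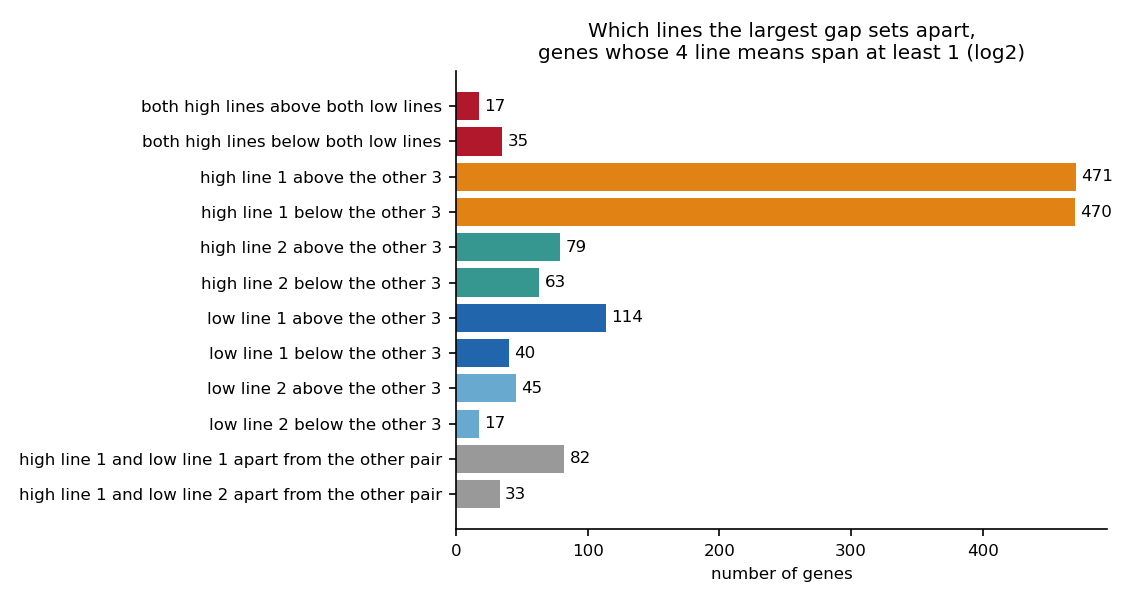
Bars give the number of genes, out of 1466 whose 4 imatinib line means span at least 1 (log2), by the lines that the largest gap between neighbouring means sets apart. High-imatinib line 1 stands apart in 941 genes (471 above, 470 below), and the doses stand apart in 52 (17 above, 35 below).

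The same order was seen without a minimum gap for each class. In the 1466 genes, the largest gap between neighbouring line means set high-imatinib line 1 apart from the other 3 in 941 (64.2%) and both high lines apart from both low lines in 52 (3.55%). It set a high and a low line apart from the other high and low line in 115 (7.84%). High-imatinib line 1 was paired with low-imatinib line 1 in 82 of these (5.59% of the 1466) and with low-imatinib line 2 in 33 (2.25%). The dose pairing, at 52, thus lay between the mixed pairings in number. The root mean square distance between high-imatinib lines 1 and 2 was 0.534 over all genes. High-imatinib line 1 lay 0.523 and 0.533 from low-imatinib lines 1 and 2, while high-imatinib line 2 lay 0.343 and 0.288 from them. The 2 low-imatinib lines lay 0.312 apart, so high-imatinib line 2 was about as near to the low-imatinib lines as these were to each other.

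**Figure D2:**
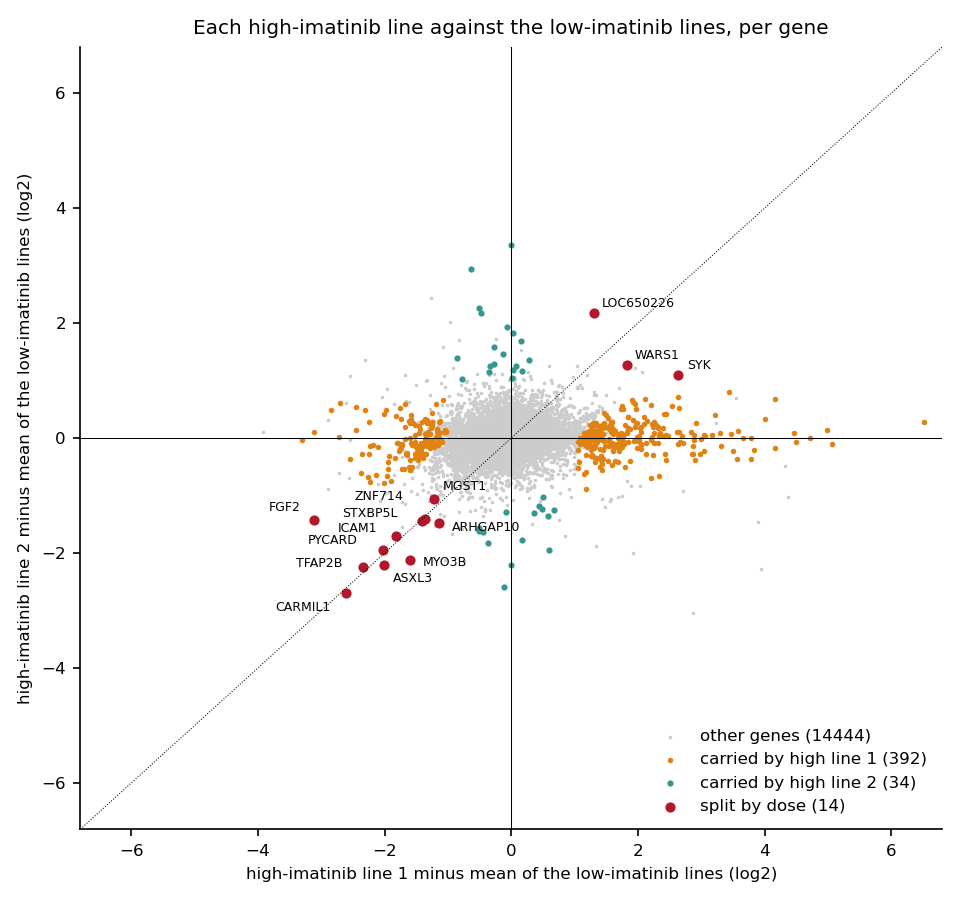
Each point is a gene: the level in high-imatinib line 1 minus the mean of the low-imatinib lines (x axis, log2) against the same for high-imatinib line 2 (y axis, log2). Genes carried by high-imatinib line 1 (392) spread along the x axis, those carried by high-imatinib line 2 (34) along the y axis, and the 14 genes split by dose lie away from both.

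The genes split by dose upward were WARS1, SYK and LOC650226. WARS1, which encodes the tryptophanyl-tRNA synthetase, had 9.33 and 8.77 in high-imatinib lines 1 and 2, against 7.54 and 7.47 in low-imatinib lines 1 and 2. Its 8 high-imatinib arrays ran from 8.72 to 9.36 and its 8 low-imatinib arrays from 7.33 to 7.69, with no overlap. The difference was 1.55 ± 0.21 (limma SE, pooled over all groups, 2.92-fold, limma adjusted p = 0.799). A second feature of WARS1 differed by 0.52, in the same direction, and with the mean of both features the gap is 0.77, below the limit of 1, so the call rests on the brighter feature. In naive sets S and K the level was 9.11 and 8.80, as in the high-imatinib lines, so the low-imatinib lines were the ones that stood apart.

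SYK, which encodes a cytoplasmic tyrosine kinase that acts downstream of immune receptors, had 7.89 and 6.34 in high-imatinib lines 1 and 2, against 5.28 and 5.22 in low-imatinib lines 1 and 2. Both high lines were above both low lines, but line 1 was well above line 2. The difference was 1.87 ± 0.68 (limma SE, limma adjusted p = 0.934), an error that pools this spread with that of the other groups. Nilotinib lines 1 and 2 had 5.97 and 7.91, and naive sets S and K had 6.81 and 6.42. LOC650226, annotated as a transcribed pseudogene, had 6.17 and 7.04 in the high-imatinib lines, against 4.83 and 4.91 in the low-imatinib lines. Here line 2 was the higher of the high-imatinib lines. The difference was 1.74 ± 0.26 (SE, limma adjusted p = 0.799), and a second feature gave 1.008. With the mean of both features its gap is 0.98, also below 1.

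The largest gap of all was that of CARMIL1, which encodes a protein that regulates actin capping and cell protrusion. It had 5.84 and 5.76 in the high-imatinib lines, against 8.02 and 8.88 in the low-imatinib lines. The high-imatinib arrays ran from 5.62 to 5.92 and the low-imatinib arrays from 7.59 to 8.98, so no array overlapped, and the high-imatinib lines were level with each other. The difference was -2.65 ± 0.57 (limma SE, pooled over all groups, 6.27-fold lower, limma adjusted p = 0.825). Naive sets S and K had 6.53 and 6.64, between the doses and nearer to the high-imatinib lines.

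TFAP2B, a transcription factor of the AP-2 family known from neural crest and kidney development, had 5.58 and 5.68 in the high-imatinib lines, against 7.70 and 8.15 in the low-imatinib lines (difference -2.29 ± 0.40, SE; limma adjusted p = 0.799). Here the naive sets, with 7.15 and 7.29, were nearer to the low-imatinib lines. ASXL3, a chromatin regulator of the polycomb-linked ASXL family, had 7.20 and 6.99 in the high-imatinib lines, against 8.84 and 9.57 in the low-imatinib lines. Its naive sets, with 5.17 and 5.31, lay below all 4 lines, so the level was highest in the low-imatinib lines and intermediate in the high-imatinib lines.

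Among the lower genes were 2 of inflammation and adhesion. PYCARD, the adaptor of the inflammasome known as ASC, had 5.97 and 6.04 in the high-imatinib lines, against 8.35 and 7.65 in the low-imatinib lines (difference -1.99 ± 0.59, SE; limma adjusted p = 0.934). ICAM1, the adhesion molecule that leukocyte integrins bind, had 5.88 and 6.001 in the high-imatinib lines, against 7.84 and 7.57 in the low-imatinib lines (difference -1.76 ± 0.57, SE; limma adjusted p = 0.934). Both genes were about at the array median in the high-imatinib lines, and their naive levels were nearer to the low-imatinib lines: 7.51 and 7.93 for PYCARD, and 8.72 and 8.25 for ICAM1. Nilotinib line 1 had PYCARD at 6.04, as low as the high-imatinib lines, and ICAM1 at 9.06, the highest of the 8 sets.

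FGF2, which encodes basic fibroblast growth factor, had 5.54 and 7.23 in high-imatinib lines 1 and 2, against 8.52 and 8.78 in the low-imatinib lines. High-imatinib line 2 lay nearer to both low-imatinib lines than to high-imatinib line 1, and the difference of the means was -2.27 ± 0.79 (SE; limma adjusted p = 0.934). MYO3B, a class III myosin chosen after its values were seen because its unadjusted p of 0.102 in limma lies outside the naming rule, had 7.51 and 6.99 in the high-imatinib lines, against 9.03 and 9.19 in the low-imatinib lines. Nilotinib lines 1 and 2 had MYO3B at 5.99 and 9.61, and these values enter the pooled error of the fit.

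The other 4 lower genes had gaps from -1.29 to -1.02. ARHGAP10 had 5.60 and 5.25 in the high-imatinib lines, against 6.63 and 6.84 in the low-imatinib lines. STXBP5L, a tomosyn that binds syntaxin in vesicle release, had 4.80 and 4.76 in the high-imatinib lines, against 6.33 and 6.09 in the low-imatinib lines. ZNF714, a zinc finger gene, had 5.47 and 5.42 in the high-imatinib lines, against 6.53 and 7.12 in the low-imatinib lines. MGST1, a microsomal glutathione transferase, had 5.45 and 5.62 in the high-imatinib lines, against 6.70 and 6.64 in the low-imatinib lines. All 4 were below the array median in the high-imatinib lines. MGST1 lay just inside the rule (gap -1.02) and RGCC just outside it (-0.97); on the upper side SYK lay just inside (1.07) and ANXA3 just outside (0.87).

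**Figure D3:**
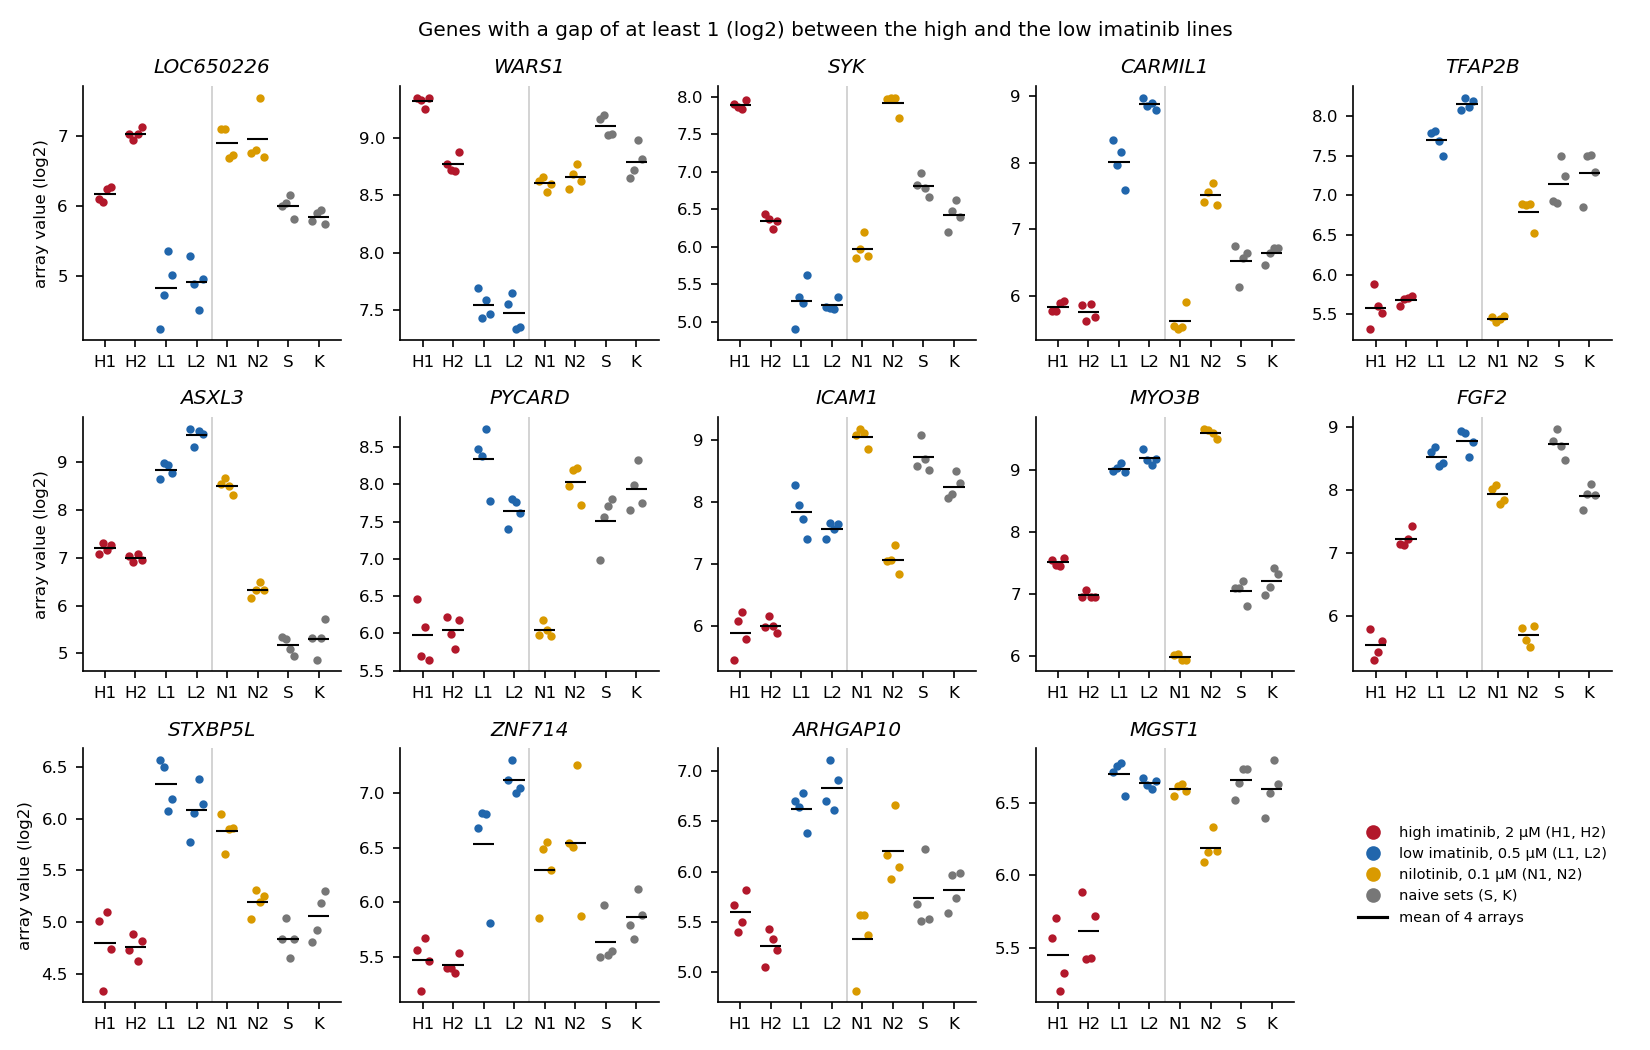
Array values (y axis, log2) of the 14 genes split by dose in high-imatinib lines (H1, H2), low-imatinib lines (L1, L2), nilotinib lines (N1, N2) and naive sets (S, K). Each dot is 1 array and each bar the mean of 4; in every panel the 8 high-imatinib arrays lie apart from the 8 low-imatinib arrays, and the nilotinib and naive levels can lie with either.

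The naive level did not order the split genes along a single dose axis. Both naive sets were nearer to the high-imatinib mean in 3 of 3 genes higher and 6 of 11 genes lower, and nearer to the low-imatinib mean in the other 5. Across the wider sets with a gap of 0.5, both naive sets were nearer to the high-imatinib mean in 16 of 39 genes higher and 46 of 75 lower, and nearer to the low-imatinib mean in 17 of 39 and 22 of 75. Naive sets lay beyond the low-imatinib lines, the order of a graded change with dose, in 8 of 39 genes higher and 4 of 75 lower. They lay beyond the high-imatinib lines in 2 of 39 and 16 of 75.

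Genes with a gap between 0.5 and 1 were chosen for the text after their values were seen. Among the higher ones, CTSD, the aspartic protease cathepsin D, had 10.34 and 9.996 in the high-imatinib lines, against 9.45 and 9.38 in the low-imatinib lines. GRN, which encodes the lysosomal and secreted protein progranulin, had 10.65 and 10.75 in the high-imatinib lines, against 9.89 and 9.99 in the low-imatinib lines. B2M, the light chain of class I antigen-presenting molecules, had 8.76 and 8.64 in the high-imatinib lines, against 8.01 and 8.09 in the low-imatinib lines. In these values of the 3 genes the lines of a dose lay closer to each other than to any line of the other dose. A second, dimmer feature of B2M had 5.73 and 5.57 in the high-imatinib lines, against 5.31 and 5.55 (difference 0.22), so its gap rests on the brighter feature. Over the whole autophagy and lysosome list, 9 of 36 members were higher in both high lines, 4 were lower (against 17.2% and 16% of all genes) and the median difference was 0.05, against a median of 0.00 over all genes.

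Among the lower genes, BCL2L11, the BH3-only apoptosis activator BIM, had 6.68 and 6.96 in the high-imatinib lines, against 7.63 and 7.78 in the low-imatinib lines. KEAP1, which marks the antioxidant regulator NRF2 for degradation, had 7.98 and 7.96 in the high-imatinib lines, against 8.84 and 8.48 in the low-imatinib lines. JAK2, a kinase of cytokine receptors, had 6.96 and 7.10 in the high-imatinib lines, against 7.60 and 7.61 in the low-imatinib lines. Single arrays of JAK2 overlapped between the doses. Nilotinib line 1 had JAK2 at 8.26 and BCL2L11 at 8.33, above all 4 imatinib lines. Of the antioxidant list, 7 of 23 members were higher and 6 lower in both high lines (against 17.2% and 16% of all genes), with TALDO1, a pentose phosphate enzyme, at a gap of 0.57 and the pair MGST1 and KEAP1 at gaps of -1.02 and -0.50. Of the BCL2 family, 5 of 17 were higher (29.4%, against 17.2%) and 3 lower (17.6%, against 16%).

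A family of small noncoding RNAs stood lower as a group. The snaR genes (small NF90-associated RNAs) are transcribed by RNA polymerase III from near-identical copies, most of them on chromosome 19. Probe sequences were not examined and array features may not tell the copies apart, so they are not read as independent measurements. Of 8 measured snaR genes, 7 were lower in both high lines than in both low lines (against 16% of all genes), 6 of them with a gap of at least 0.5 (against 0.504%), and the median difference was -1.03. SNAR-C1 had 11.60 and 11.93 in the high-imatinib lines, against 12.85 and 12.73 in the low-imatinib lines (difference -1.02 ± 0.18, SE; limma adjusted p = 0.799). SNAR-H, on chromosome 2, had 8.79 and 9.41 in the high-imatinib lines, against 10.67 and 10.36 in the low-imatinib lines. SNAR-I, on chromosome 3, overlapped, with 7.90 and 7.53 in the high-imatinib lines, against 7.64 and 7.56 in the low-imatinib lines. Naive sets S and K had SNAR-C1 at 12.25 and 12.61, between the doses. Set K was above set S in every measured member. In some, the naive sets differed about as much as the doses did. SNAR-F had 7.09 and 7.81 in sets S and K (dose gap -0.88), and SNAR-G2 had 9.51 and 10.37 (dose gap -0.79). POLR3G, a subunit gene of RNA polymerase III chosen after its values were seen, had 6.56 and 7.71 in the high-imatinib lines, against 8.45 and 8.46 in the low-imatinib lines. High-imatinib line 1 was well below line 2 and carried this gene downward (gap -1.15). The part of POLR3G in the snaR levels was not tested.

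The integrated stress response was the list with the highest median difference of 38 lists with measured members, whose medians ran from -0.30 to 0.44. Of 28 measured members, 17 were higher in both high-imatinib lines than in both low-imatinib lines (60.7%, against 17.2% of all genes) and 0 were lower (against 16%). An unadjusted limma p under 0.05 was reached by 11 members, all higher (against 1.71% of all genes higher and 3.14% lower), and 0 passed the adjusted threshold. The median was 0.44 over both high lines, 0.75 in high-imatinib line 1 and 0.28 in high-imatinib line 2, each against the mean of the low-imatinib lines. With the technical axis taken out of the values, 19 of 28 members were higher in both high lines.

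The list covers the steps of the response. ATF4 itself had 9.68 and 9.53 in the high-imatinib lines, against 9.35 and 9.31 in the low-imatinib lines; its protein level is set mostly by translation, which arrays do not measure. Its target DDIT4, an inhibitor of the growth kinase mTORC1, had 9.63 and 8.89 in the high-imatinib lines, against 8.18 and 7.17 in the low-imatinib lines (difference 1.59 ± 0.40, SE; limma adjusted p = 0.934). SESN2, a stress-induced sestrin that also restrains mTORC1, had 9.69 and 8.44 in the high-imatinib lines, against 7.67 and 7.89 in the low-imatinib lines. With WARS1, these were the 3 members with a gap of at least 0.5 (against 0.262% of all genes higher).

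Among transcription factors of the response, ATF3 had 7.46 and 6.83 in the high-imatinib lines, against 6.54 and 6.26 in the low-imatinib lines. DDIT3, the factor CHOP, had 8.15 and 6.68 in the high-imatinib lines, against 6.08 and 6.55 in the low-imatinib lines. ATF5 had 7.59 and 7.85 in the high-imatinib lines, against 7.39 and 7.33 in the low-imatinib lines. High-imatinib line 2 was above line 1 in ATF5 and well below it in DDIT3.

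Among the enzymes, ASNS, the asparagine synthetase, had 9.40 and 8.63 in the high-imatinib lines, against 8.53 and 8.16 in the low-imatinib lines. PHGDH, the first enzyme of serine synthesis, had 8.98 and 8.21 in the high-imatinib lines, against 7.90 and 7.82 in the low-imatinib lines. CARS1, the cysteinyl-tRNA synthetase, had 8.76 and 7.92 in the high-imatinib lines, against 7.56 and 7.41 in the low-imatinib lines. All 3 lay above both low lines in each high line, and by less in line 2 than in line 1. The synthetases GARS1, SARS1 and AARS1 overlapped. SARS1 had 9.90 and 8.95 in the high-imatinib lines, against 9.11 and 8.92 in the low-imatinib lines. AARS1 had 10.94 and 10.13 in the high-imatinib lines, against 9.90 and 10.56 in the low-imatinib lines. CTH, which makes cysteine, went the other way in 1 line, with 5.55 and 7.82 in high-imatinib lines 1 and 2, against 7.44 and 7.01 in the low-imatinib lines. So did PSAT1, with 7.59 and 9.93 in high-imatinib lines 1 and 2, against 8.42 and 9.45 in the low-imatinib lines. Line 1 was also below both low-imatinib lines in CBS, EIF4EBP1 and STC2.

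High-imatinib line 1 carried 4 members upward, TRIB3, GDF15, DDIT3 and SESN2 (against 1.72% of all genes). GDF15, a secreted stress cytokine, had 11.34 and 9.28 in high-imatinib lines 1 and 2, against 9.17 and 9.50 in the low-imatinib lines. TRIB3, a pseudokinase that feeds back on ATF4, had 9.06 and 7.40 in high-imatinib lines 1 and 2, against 7.40 and 7.04 in the low-imatinib lines. Relative to naive cells, the list median was -0.21 in the high-imatinib lines and -0.68 in the low-imatinib lines, so the low-imatinib lines lay farther below the naive level.

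**Figure D4:**
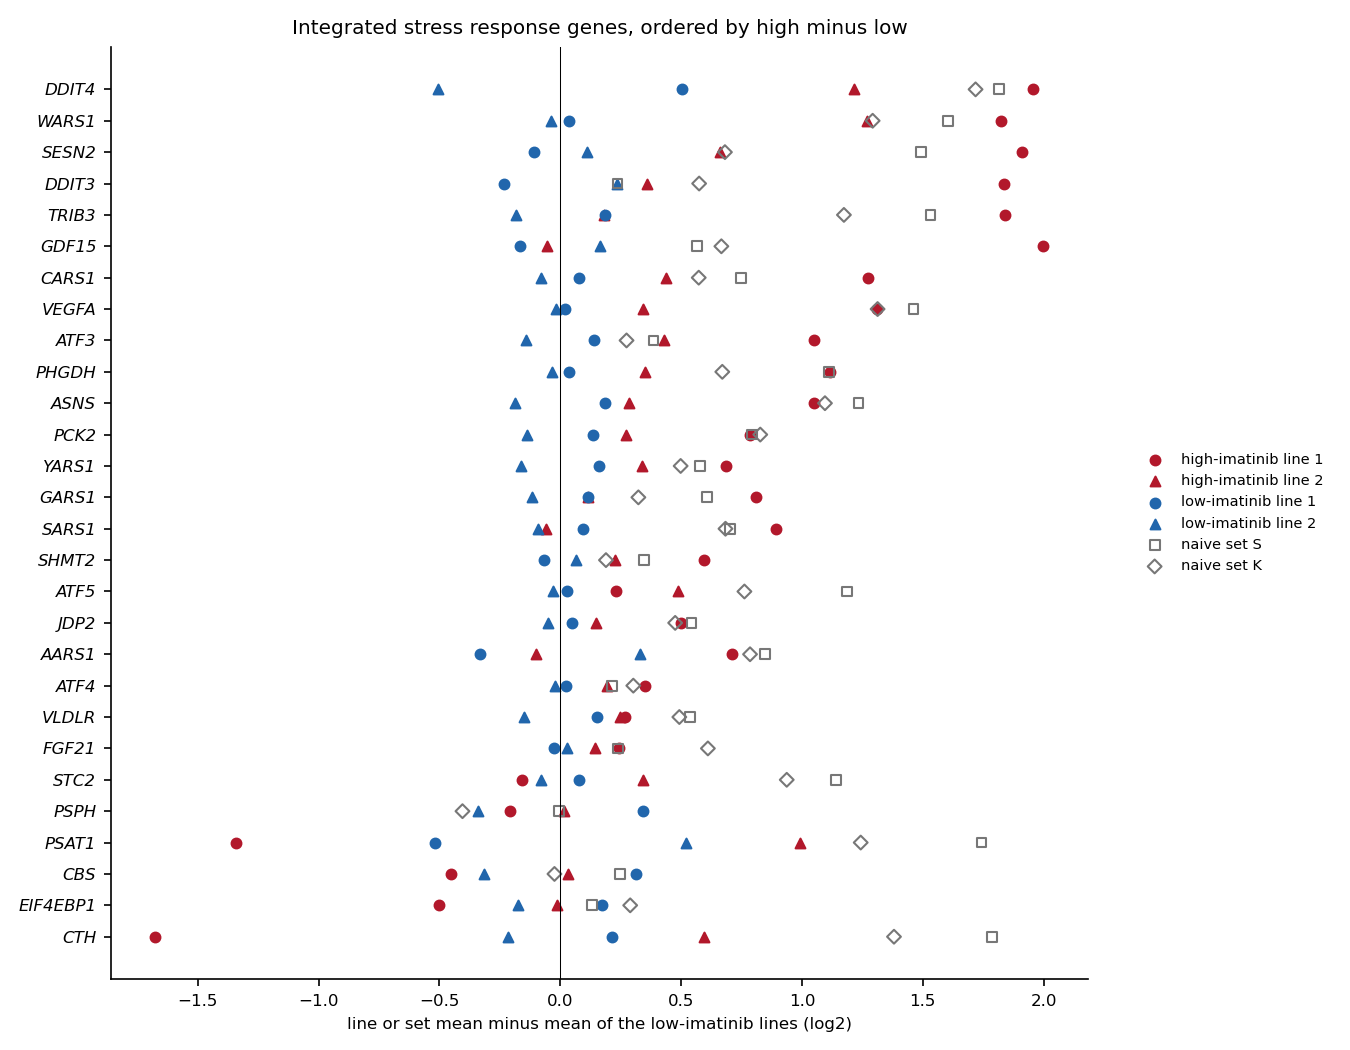
The 28 measured integrated stress response genes, from the largest high minus low difference at the top, with each line or naive set plotted as its level minus the mean of the low-imatinib lines (x axis, log2). High-imatinib line 1 (red circles) lies to the right for most genes, high-imatinib line 2 (red triangles) mostly lies between it and the low-imatinib lines (blue), and the naive sets (grey) are mostly to the right.

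Promoters of this list were searched for the composite site that ATF4 and C/EBP factors are known to bind, spelled TGATGNAAN and read on both strands. Of the 23 members with a promoter in the RefSeq table (GRCh38.p14, 250 bases before to 50 after the gene start), 5 hold a match, and 4 of the 14 with a promoter that were higher in both high lines do. A match is present in 3.67% of all 27305 promoters in the table. The 12 promoters available for the genes split by dose hold 0 matches, and WARS1 is among them. Shown are the promoters of 3 members that were higher in both high lines, an enzyme, a tRNA synthetase and a transcription factor, written 5′ to 3′ on the strand of the gene, with the match in capitals (ASNS chr7:97872359-97872658, minus strand; CARS1 chr11:3057374-3057673, minus strand; ATF3 chr1:212565157-212565456, plus strand).
ASNS: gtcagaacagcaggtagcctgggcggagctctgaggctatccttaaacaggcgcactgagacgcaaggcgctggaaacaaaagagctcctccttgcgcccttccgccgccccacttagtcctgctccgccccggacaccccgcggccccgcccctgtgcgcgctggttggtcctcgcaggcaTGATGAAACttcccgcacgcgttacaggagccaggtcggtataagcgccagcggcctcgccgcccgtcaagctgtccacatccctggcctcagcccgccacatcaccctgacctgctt
CARS1: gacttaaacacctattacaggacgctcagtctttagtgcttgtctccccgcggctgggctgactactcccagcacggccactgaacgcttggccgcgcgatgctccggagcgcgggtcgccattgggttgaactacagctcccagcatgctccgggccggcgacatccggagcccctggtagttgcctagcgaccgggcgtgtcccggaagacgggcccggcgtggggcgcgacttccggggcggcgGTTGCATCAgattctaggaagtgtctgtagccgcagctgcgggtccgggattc
ATF3: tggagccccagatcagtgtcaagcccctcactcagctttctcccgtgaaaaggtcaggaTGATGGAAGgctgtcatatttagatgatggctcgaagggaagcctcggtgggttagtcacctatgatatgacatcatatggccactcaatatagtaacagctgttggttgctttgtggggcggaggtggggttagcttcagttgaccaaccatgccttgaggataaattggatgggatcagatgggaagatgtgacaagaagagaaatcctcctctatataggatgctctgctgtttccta
The matches start 68 bases before the gene start in ASNS, 3 before it in CARS1 and 191 before it in ATF3. These letters are a description of the sequence and were not tested as binding sites.

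Lists of growth and division stood slightly lower in the high-imatinib lines. Of 46 ribosomal protein genes, 0 were higher and 18 lower in both high lines (against 17.2% and 16% of all genes), with a median difference of -0.16, and -0.29 in line 1 and -0.06 in line 2. RPS28, of the small subunit, had 12.68 and 12.58 in the high-imatinib lines, against 13.14 and 13.02 in the low-imatinib lines. RPL32, of the large subunit, had 6.104 and 6.77 in the high-imatinib lines, against 7.14 and 7.05 in the low-imatinib lines. An unadjusted limma p under 0.05 was reached by 5 members, all lower (against 3.14% of all genes), and by 0 after adjustment. Several of these genes have many processed pseudogenes, which features may not tell apart.

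Of 42 mitosis genes, 1 was higher and 16 lower in both high lines (against 17.2% and 16% of all genes), and the median was -0.16 (-0.38 in line 1, -0.02 in line 2). MKI67, the proliferation marker, had 9.35 and 9.49 in the high-imatinib lines, against 9.83 and 10.15 in the low-imatinib lines. Not all such genes differed: TOP2A, the topoisomerase of dividing cells, had 10.74 and 11.001 in the high-imatinib lines, against 10.71 and 11.04 in the low-imatinib lines. Relative to naive cells the mitosis median was 0.56 in the high-imatinib lines and 0.79 in the low-imatinib lines. Of 25 DNA replication genes, 1 was higher (MCM5, by a gap of 0.01) and 6 lower, none by a gap over 0.16 (against 17.2% and 16% of all genes); the median was -0.59 in line 1 and 0.05 in line 2, so it was set by line 1.

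Heme and red cell surface genes showed the same dependence on 1 line, and no globin gene was among the measured members of their list. The list of hemoglobin, heme and red cell surface genes had the lowest median of all lists (-0.30 over 20 members, 2 higher and 6 lower, against 17.2% and 16% of all genes), made of -0.57 in high-imatinib line 1 and 0.21 in high-imatinib line 2. FECH, the last enzyme of heme synthesis, had 7.57 and 10.03 in high-imatinib lines 1 and 2, against 9.13 and 9.95 in the low-imatinib lines. RHAG, a red cell surface glycoprotein, had 7.94 and 9.69 in high-imatinib lines 1 and 2, against 10.18 and 10.43 in the low-imatinib lines. KLF1, an erythroid transcription factor of another list, had 7.54 and 8.71 in high-imatinib lines 1 and 2, against 9.08 and 9.04 in the low-imatinib lines. That list, of erythroid transcription factors and regulators, had a median of -0.05 over 20 members (-0.08 in line 1, -0.04 in line 2). High-imatinib line 1 carried 1 of its members higher and 1 lower. High-imatinib line 1 carried 5 members of the heme and red cell surface list lower (against 0.914% of all genes). Naive sets S and K had FECH at 7.83 and 7.69, the level of that line.

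Genes induced by MAPK signalling, the cascade downstream of RAS, had a median of 0.18 over 23 members, with 6 higher and 1 lower in both high lines (against 17.2% and 16% of all genes); the median was 0.28 in line 1 and 0.06 in line 2. Line 1 carried 6 of them upward (against 1.72% of all genes). SPRY4, a feedback inhibitor of the cascade, had 8.60 and 6.07 in high-imatinib lines 1 and 2, against 6.35 and 6.38 in the low-imatinib lines. IER3, an immediate early gene, had 9.77 and 7.70 in high-imatinib lines 1 and 2, against 7.23 and 7.73 in the low-imatinib lines. FOSL1, a member of AP-1, was the one with the widest gap between doses, 7.54 and 7.14 in the high-imatinib lines, against 6.55 and 6.79 in the low-imatinib lines.

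Of the listed targets of the drugs, the 6 measured (BCR, ABL2, KIT, DDR1, DDR2 and CSF1R) were not split by dose; ABL1, PDGFRA and PDGFRB were not analysed here. BCR had 7.82 and 8.20 in high-imatinib lines 1 and 2, against 8.12 and 8.32 in the low-imatinib lines. Probe positions were not examined, so whether its feature also reads transcripts of the fusion is not known here. The values overlapped, and the difference was -0.21 ± 0.36 (limma SE, pooled over all groups, limma 95% interval -1.05 to 0.63, limma adjusted p = 0.970). KIT, a receptor kinase that imatinib also inhibits, had 7.54 and 5.38 in high-imatinib lines 1 and 2, against 5.60 and 5.51 in the low-imatinib lines. Naive sets S and K had KIT at 8.44 and 8.87. Of these 6, 1 was higher (DDR2, by a gap of 0.10) and 1 lower (DDR1, by a gap of -0.07) in both high lines (against 17.2% and 16% of all genes). Drug transporters and histone genes had 0 measured members in these lists.

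High-imatinib line 1 carried 6 of 22 granulocyte and monocyte genes upward (LYZ, CD68, SPI1, CD53, CD24 and TYROBP) and 0 of 26 lymphoid genes, against 1.72% of all genes. The genes with its widest gaps reached 6.11; the widest gap between doses was -2.18. LAPTM5, a lysosomal membrane protein of blood cells, had 13.20 and 6.96 in high-imatinib lines 1 and 2, against 7.09 and 6.27 in the low-imatinib lines. STAP1, an adaptor of tyrosine kinase signalling, had 9.58 and 4.42 in high-imatinib lines 1 and 2, against 4.59 and 4.46 in the low-imatinib lines. IFITM2, an interferon-induced membrane protein, had 10.01 and 5.15 in high-imatinib lines 1 and 2, against 5.16 and 4.88 in the low-imatinib lines. High-imatinib line 2 was at the low-imatinib level in all 3 genes. ARHGEF6, CD53, CD44 and CTSS showed the same pattern, at 9.62, 10.01, 9.07 and 8.90 in line 1. Nilotinib line 2 was nearer to high-imatinib line 1 than to the other 3 lines in 131 of the 256 genes, nilotinib line 1 in 68 and both naive sets in 51. Several of the genes named here are among those 51: naive sets S and K had 8.35 and 8.10 for STAP1, 8.60 and 8.23 for IFITM2, 8.88 and 8.83 for ARHGEF6, 9.06 and 8.69 for CD53, and 7.80 and 8.03 for CTSS. In these 5 the other 3 imatinib lines stood below line 1 and naive cells alike. For CD44 the naive sets, with 5.86 and 6.23, were near the other 3 lines.

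Downward, the same line carried TF, which encodes the iron carrier transferrin, with 5.92 and 9.19 in high-imatinib lines 1 and 2, against 9.005 and 9.45 in the low-imatinib lines. HEMGN, an erythroid nuclear protein, had 6.29 and 9.51 in high-imatinib lines 1 and 2, against 9.22 and 9.61 in the low-imatinib lines. Naive sets S and K had TF at 6.57 and 6.53 and HEMGN at 6.69 and 7.44, above line 1 and below the other 3 lines. Of the 136 genes lower in line 1, both naive sets were nearer to that line in 87 and nearer to the other 3 lines in 35. Of the 256 higher ones, both naive sets were nearer to the other 3 lines in 179.

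High-imatinib line 2 carried few genes. PASD1, a cancer-testis gene, had 5.02 and 8.38 in high-imatinib lines 1 and 2, against 5.07 and 4.97 in the low-imatinib lines. SCG3, a secretogranin of secretory granules, had 4.29 and 7.87 in high-imatinib lines 1 and 2, against 4.65 and 5.21 in the low-imatinib lines, and reached 10.66 in nilotinib line 1. BST2, the antiviral membrane protein tetherin, had 6.66 and 4.47 in high-imatinib lines 1 and 2, against 6.58 and 6.76 in the low-imatinib lines. TMOD2 and POPDC1 were other genes higher in line 2, and GALNT5, EPB41L2 and RFESD were lower.

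Low-imatinib line 1 carried SNAI2, a repressor known from mesenchymal transition, with 6.01 and 6.18 in the high-imatinib lines, against 9.04 and 6.43 in low-imatinib lines 1 and 2. Of its other leading genes, CT55 lies on chromosome X and THADA and PRKD3 on chromosome 2, as do 17 of the 27 genes it carried upward (63.0%, against 6.45% of all genes). GP6, the platelet collagen receptor, had 7.91 and 7.89 in the high-imatinib lines, against 6.46 and 7.91 in low-imatinib lines 1 and 2. Low-imatinib line 2 carried EFEMP1, a matrix glycoprotein, with 5.89 and 6.89 in the high-imatinib lines, against 6.28 and 8.45 in low-imatinib lines 1 and 2. In each of these genes 1 low-imatinib line stood apart and the other was near the high-imatinib lines.

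Position along chromosomes was examined with running medians over 25 neighbouring genes. In low-imatinib line 1, genes from MEMO1 to CRIPT (RefSeq GRCh38.p14, chr2:31867823-46630176) had a median 0.89 above the other 3 lines, and 46 of 49 were highest in that line. This 1 segment held 15 of the 27 genes carried upward by low-imatinib line 1. It also held the lowest running median of the high minus low difference, -0.55; the highest was 0.31. A stretch of chromosome 11 from SYT7 to WDR74 had a running median of up to 0.91 in the same line. The other lines had windows with a running median of at least 0.5 in size too. They are named by their first and last gene on a chromosome, and need not form 1 unbroken run. High-imatinib line 1 was lower in windows on chromosome 4 (PCDH10 to GAB1, down to -0.68) and chromosome 11 (21 windows from FADS2 to POU2AF1, -0.60). FADS2 lies inside the stretch where low-imatinib line 1 was higher, and that line enters the mean of the other 3. High-imatinib line 2 was higher on chromosome 14 (WDR25 to TDRD9, up to 0.58) and chromosome 15 (UBAP1L to DPP8, 0.52), and low-imatinib line 2 on chromosome 22 (DGCR5 to TRMT2A, 0.55). The windows on chromosome 14 start beside WARS1, whose level was nevertheless lower in high-imatinib line 2 than in line 1. The part of these windows in the WARS1 difference was not tested.

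**Figure D5:**
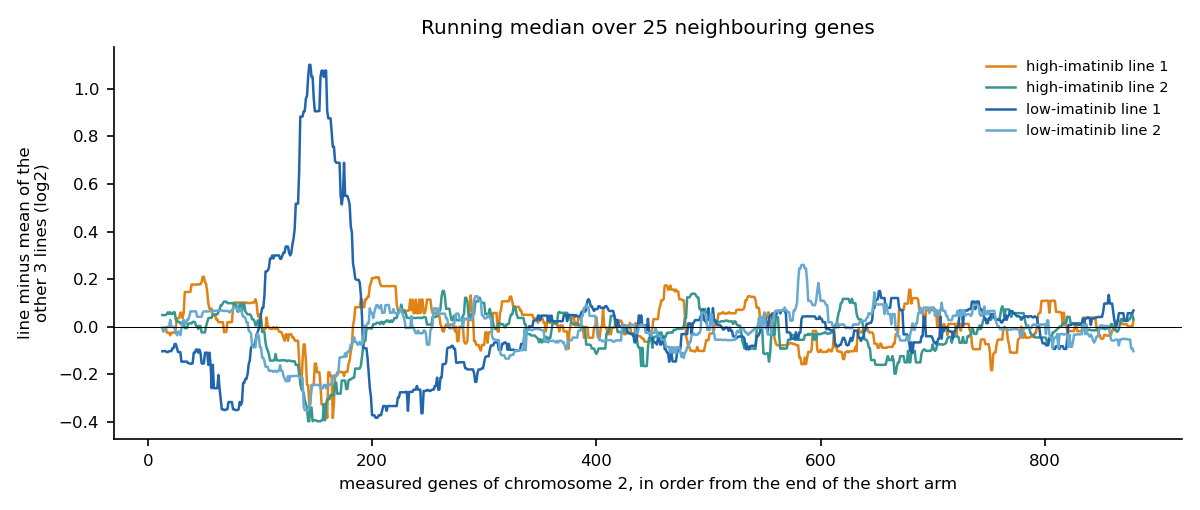
Running median over 25 neighbouring genes of each imatinib line minus the mean of the other 3 (y axis, log2), along the measured genes of chromosome 2 in their order (x axis). Low-imatinib line 1 reaches 1.10 on the short arm, while the other lines dip there because it enters their mean.

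Counts by chromosome differed between the directions. The shares over all genes, to set beside each chromosome below, were 17.2% higher and 16% lower in both high lines. On chromosome 15, 148 of 465 genes were higher in both high lines (31.8%) and 22 lower (4.73%). The median difference there was 0.01 in high-imatinib line 1 and 0.23 in high-imatinib line 2, so the shift lay in line 2. On chromosome 13, 9 of 313 genes were higher (2.88%) and 90 lower (28.8%), with medians of -0.11 and -0.14 in high-imatinib lines 1 and 2. On chromosome 17, 229 of 884 were higher (25.9%) and 78 lower (8.82%), with medians of -0.01 and 0.11 in high-imatinib lines 1 and 2, so this shift too lay in line 2. On chromosome 19, 111 of 1081 were higher (10.3%) and 245 lower (22.7%). It held 21 of the 75 genes lower with a gap of 0.5, against 7.26% of all genes. Of these 21, 5 were snaR genes. The 14 split genes lay on 11 chromosomes, with at most 2 on any 1.

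The arrays also carry features for miRNA genes. These measure transcripts of the locus in total RNA, and the mature molecule was not measured on its own. Of 1072 miRNA genes, 164 were higher in both high lines (15.3%) and 160 lower (14.9%), close to the shares of all genes. A gap of at least 0.5 was reached by 5 of the 1072, which is not above the share over all genes, 0.766%. They were MIR5047, higher, and MIR4521, MIR4500, MIR4524A and MIR1322, lower. The mature sequences of 4 of these genes are shown from RefSeq (GRCh38.p14, which holds 998 of the 1072), with bases 2 to 8, the seed that pairs with targets, in capitals.
hsa-miR-5047: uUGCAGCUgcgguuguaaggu
hsa-miR-4521: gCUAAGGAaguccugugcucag
hsa-miR-4500: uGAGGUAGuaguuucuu
hsa-miR-4524a-5p: aUAGCAGCaugaaccugucuca
hsa-miR-4524a-3p: uGAGACAGgcuuaugcugcuau
All 5 seeds differ, and that of hsa-miR-4500 has the letters of the let-7 seed. MIR5047 had 9.19 and 9.04 in the high-imatinib lines, against 7.92 and 8.30 in the low-imatinib lines. MIR4521 had 6.15 and 7.37 in the high-imatinib lines, against 8.29 and 8.02 in the low-imatinib lines. A second feature of it differed by -0.74 but was dim, with 1.99 and 2.20 in the high-imatinib lines, against 2.81 and 2.86 in the low-imatinib lines. MIR4500 had 5.56 and 4.48 in the high-imatinib lines, against 7.09 and 6.11 in the low-imatinib lines. MIR4524A (2.40 and 2.20, against 2.93 and 2.93) and MIR1322 (3.07 and 3.26, against 4.10 and 3.81) were dim in high-imatinib and low-imatinib lines alike, and their arrays overlapped between the doses.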

How the data were processed

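Total RNA of 8 sets of K-562 cells was measured on 32 whole-transcript arrays, 4 per set. The deposited values are log2 summarised intensities, made by the authors with Transcriptome Analysis Console 4.0 per the submitters' processing notes; the log base was inferred from the range (1.24 to 14.2), with a normalization not given in the sources used here. Of 53617 features, 16098 carried 1 gene symbol, 0 several and 37519 none here; symbols were updated by gene identifier from RefSeq (GRCh38.p14). The feature with the highest mean stood for each of 14884 genes.

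Each line entered as the mean of its 4 arrays. Differences were tested with limma 3.58.1 (R 4.3.3) on 8 set means with 1 mean per group (4 residual degrees of freedom), with Benjamini-Hochberg adjustment. An error of a difference is limma's SE and pools all 4 groups. With 2 lines or sets per group, p-values measure the spread within all 4 groups, naive and nilotinib included, all from 1 cell line. The fits and the rules were tested on simulated data. Precision is limited by how few arrays and lines there are.

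Of the 40 gene lists, 38 had measured members. Members, lists and rules were chosen with earlier results of these data known, and lists carry no test. Named genes are those split by dose with an unadjusted p under 0.05, the 4 with the largest gap in each direction for each line, for each list the member with the largest gap split by dose and carried by 1 line, and BCR. Genes named beyond this were chosen after their values were seen. Alternatives changed the averaging, normalization, features, filter, gap, samples in the fit and technical axis.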

Additional observations from a re-analysis of the deposited data

Results flagged for a closer look

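Among the 67 named genes, 268 groups of 4 technical arrays were examined for a single array far from the other 3, and 12 groups (4.48%) held one; chance marks about 1 in 20. In high-imatinib line 1, 1 array of ERN1 stood at 8.25 above the other 3. In high-imatinib line 2, 1 array of TMOD2 stood high at 8.13, and 1 each of LTBP1 and SNAI2 low at 9.68 and 6.12. In low-imatinib line 1, 1 array each stood low for GINS2 (8.57), HEY1 (4.62) and ZNF714 (5.81, against 6.69 to 6.82 in the other 3). In low-imatinib line 2, BCR (8.401) and SPRY4 (6.48) each had 1 array high, and CCND2 (7.39), GALNT5 (8.86) and MCL1 (8.52) each had 1 low. Of these genes only ZNF714 was split by dose, and its lowest low-imatinib array still lay above its highest high-imatinib array, 5.67.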

How the results depend on the processing

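No alternative turned the direction of BCR or of any gene split by dose with an unadjusted limma p under 0.05. MYO3B, the other gene split by dose, was not followed on its own under the alternatives. The count past the limma threshold was 0 under every alternative except the random block over 32 arrays (413, 177 higher and 236 lower) and the fits without 1 line, set or array, which ran from 0 to 270; the 270 came without high-imatinib line 2 and the value of 2 without high-imatinib line 1. Fitting only the 4 imatinib lines gave 0, with 495 at an unadjusted p under 0.05. With every array feature in place of 1 per gene, 29 features were split by dose upward and 31 downward, and 910, 105, 151 and 47 were carried by high-imatinib lines 1 and 2 and low-imatinib lines 1 and 2. A gap of 0.5 in place of 1 gave 39 and 75 split by dose and 1400, 212, 254 and 118 carried by the same 4 lines, and a gap of 1.5 gave 0 and 6, and 159, 11, 6 and 2. The mean of all features of a gene left 1 gene split by dose upward: the second features of WARS1 and LOC650226, which differed by less, brought their gaps to 0.77 and 0.98. Leaving out the dimmest 40% of genes left 3 carried by low-imatinib line 2, since fewer genes were counted. With the technical axis taken out, 3 genes were split upward and 8 downward.

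The line numbers gave no known pairing. With the line number as a replicate block over the 6 resistant lines, 0 genes passed (619 at an unadjusted p under 0.05, limma), against 0 (722) without it. Deviations of same-numbered imatinib lines from their dose means correlated at 0.139 over genes, with 2 pairs only.

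With 2 lines per dose, a difference between doses is also a difference between individually selected lines. Arrays of a line are technical and carry no line-to-line spread, and dim features have no detection call.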

Other observations

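Sterol and fatty acid genes, and interferon-induced genes, were chosen for this paragraph after their values were seen. Of 29 genes of cholesterol synthesis and sterol sensing, 1 was higher and 7 lower in both high-imatinib lines (against 17.2% and 16% of all genes), with a median difference of -0.19, and -0.38 in line 1 and -0.01 in line 2. FASN, the fatty acid synthase, had 7.91 and 8.99 in high-imatinib lines 1 and 2, against 9.30 and 9.24 in the low-imatinib lines. MYLIP, a ligase that degrades the LDL receptor, had 8.33 and 9.25 in high-imatinib lines 1 and 2, against 9.42 and 9.54 in the low-imatinib lines. In both genes line 1 was at the naive level, with 8.03 and 7.95 for FASN in naive sets S and K, and line 2 near the low-imatinib lines.

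Of 33 interferon response genes, 9 were higher (27.3%, against 17.2%) and 6 lower (18.2%, against 16%) in both high-imatinib lines, with a median of 0.08. IFIH1, the RNA sensor MDA5, had 5.05 and 6.36 in the high-imatinib lines, against 7.43 and 6.88 in the low-imatinib lines. EIF2AK2, the kinase PKR, had 8.50 and 8.72 in the high-imatinib lines, against 10.16 and 8.91 in the low-imatinib lines. It lies on chromosome 2 and was highest in low-imatinib line 1. IFITM1 had 10.001 and 9.19 in the high-imatinib lines, against 10.33 and 10.51 in the low-imatinib lines. The higher ones, such as IRF7 and ISG20, had gaps of at most 0.16.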
